A study of Mus musculus with 60 samples.

Results

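Gap43 and 6 further genes whose proteins shape the membrane, the microtubules or the adhesion of the axonal growth cone were followed through 16 lists of chromatin peaks from mouse dorsal root ganglia. The genes are Gap43, Basp1, Marcks, Marcksl1, Stmn1, Stmn4 and Ncam2, 7 of the 21887 protein-coding genes in the RefSeq annotation of GRCm38. Gap43 was picked because its ATAC peak number was larger after sciatic axotomy, so that difference is given below as a description. For each gene, every peak that overlapped the gene body or the 10 kb on either side by at least 1 bp was taken from each list.

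The growth cone is the motile tip of a growing axon. Gap43, Basp1, Marcks and Marcksl1 encode acylated proteins of the inner face of the plasma membrane, which bind phosphoinositides and actin regulators and, in part, are released from the membrane by protein kinase C or calmodulin. Stmn1 and Stmn4 encode stathmins, which bind tubulin dimers and make microtubules more dynamic, and Ncam2 encodes an adhesion molecule of the immunoglobulin superfamily. Gap43 is a classical marker of regenerating sensory neurons, which regrow a cut peripheral axon far better than a cut central one. Acetylation of histone H3 at lysine 9 (H3K9ac) or 27 (H3K27ac) is found at active promoters and enhancers, whereas trimethylation at lysine 27 (H3K27me3) is the mark of Polycomb repression. ATAC-seq reads out DNA that a transposase can reach.

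The ganglia were those of lumbar levels L4 to L6 of C57BL/6 mice aged 6 to 8 weeks, flash frozen 24 hours after surgery. The sciatic nerve was cut (SNA) or only exposed by a sham operation (Sham), and the dorsal columns of the spinal cord were cut (DCA) or left uncut after removal of the vertebral arch alone (laminectomy, Lam). All 4 groups were therefore operated, and no unoperated group was used. Each histone mark had 2 ChIP samples per surgery, each from a pool of 10 mice, with 2 input controls, and ATAC-seq had 3 samples per surgery of 1 mouse each, which gives 60 samples. The authors deposited 1 list per assay and surgery, made from all replicates of a condition together, so no value below has a replicate error and no p-value is given.

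The numbers of peaks per list differed over the whole genome, from 50332 (Sham) to 89647 (DCA) for H3K9ac, from 43803 (Sham) to 75824 (SNA) for H3K27ac, from 90011 (DCA) to 154055 (Lam) for H3K27me3 and from 153556 (Sham) to 174605 (SNA) for ATAC. Read totals are not in these lists. A background pile-up could be recovered from the narrow-peak lists, in reads multiplied by a scale factor fitted to each list. For H3K9ac it was 1.68, 2.08, 3.04 and 5.2 in Sham, SNA, Lam and DCA. The factors were 0.315, 0.4, 0.611 and 0.918, so these values do not compare the backgrounds in unscaled reads. The DCA list, the longest, had the highest of both. For H3K27ac the scaled pile-up was 2.91, 2.34, 3.08 and 2.11, with a factor of 0.759 in SNA and 1.0 in the others. For ATAC, with a factor of 1.0, it lay between 16.2 and 18.4. Each difference in peak number below is therefore set beside the share of all genes that differed in the same direction.

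The tissue was checked at marker genes. All 10 sensory neuron markers had ATAC peaks in every list within 1 kb of one of their ends, but only 1 of them, Tubb3, had such an H3K9ac peak and only Tubb3 had such an H3K27ac peak. Of 8 markers of satellite glia and Schwann cells, 5 had an ATAC peak, 5 an H3K9ac peak and 5 an H3K27ac peak there in all 4 lists. For 6 macrophage markers the numbers were 2, 0 and 1, and for 6 genes of liver and epidermis 2, 1 and 0. Over all genes, 61.9% had an ATAC peak there in all 4 lists, 41.9% an H3K9ac peak and 32.1% an H3K27ac peak. The ATAC count of the glial markers was near that share. The ganglion is a mixed tissue, and fewer cells of a type and less signal per cell cannot be told apart here.

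For Basp1, Marcksl1 and Ncam2 the 250 bases before the start of the gene were available from RefSeq (GRCm38.p6), and ATAC peaks overlapped them in all 4 lists. They are shown because these stretches had an ATAC peak after every surgery. Capitals mark GC boxes (GGGCGG or its reverse complement CCGCCC) and an E-box (CANNTG). Each sequence is written 5′ to 3′ on the strand of its gene.
Basp1, minus strand, chr15:25413765-25414014: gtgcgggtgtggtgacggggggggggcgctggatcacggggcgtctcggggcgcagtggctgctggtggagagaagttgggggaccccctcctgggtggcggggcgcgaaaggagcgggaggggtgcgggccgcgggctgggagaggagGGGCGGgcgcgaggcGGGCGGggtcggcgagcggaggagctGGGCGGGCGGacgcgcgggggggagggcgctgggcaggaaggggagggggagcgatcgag
Marcksl1, plus strand, chr4:129513331-129513580: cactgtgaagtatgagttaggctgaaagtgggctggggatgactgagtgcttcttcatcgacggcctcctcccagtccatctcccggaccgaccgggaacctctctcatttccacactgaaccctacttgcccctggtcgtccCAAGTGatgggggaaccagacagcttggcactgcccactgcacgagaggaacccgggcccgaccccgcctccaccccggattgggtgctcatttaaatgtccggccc
Ncam2, plus strand, chr16:81200447-81200696: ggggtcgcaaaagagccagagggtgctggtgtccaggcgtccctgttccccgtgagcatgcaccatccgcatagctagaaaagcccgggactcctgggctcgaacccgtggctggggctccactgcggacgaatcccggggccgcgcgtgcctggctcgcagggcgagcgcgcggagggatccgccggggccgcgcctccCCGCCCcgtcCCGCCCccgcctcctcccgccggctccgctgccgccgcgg

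The Basp1 promoter was 78.8% G and C and held 4 GC boxes on the gene's strand, of which the last 2 overlap, between 101 and 56 bases before the start. The Ncam2 promoter was 75.2% G and C and held 2 GC boxes on the opposite strand, 50 and 40 bases before the start. The Marcksl1 promoter, at 60.4%, held no GC box and a single E-box of the letters CAAGTG, 107 bases before the start. The median over all 32851 promoters of the table was 52.4%. Searched on both strands, the GC box was present in 32.7% of all promoters of this length and the E-box in 66.2%. The AP-1 motif TGANTCA (6.75% of promoters), the ATF/CREB motif TGACGTCA (1.55%) and the TATA box TATAAA (12.4%) had no match in these 3 windows. Acetylation peaks touched only the Ncam2 promoter, with H3K9ac in DCA and H3K27ac in SNA.

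**Figure D1:**
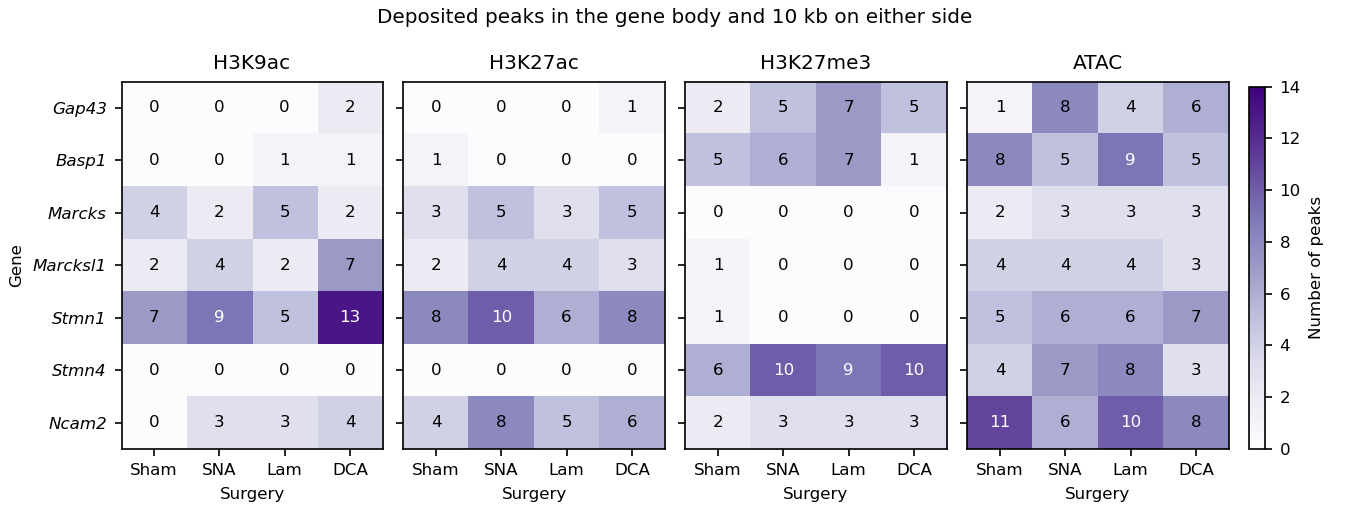
Number of deposited peaks in the gene body and 10 kb on either side for each of the 7 genes (rows) and 4 surgeries (columns), with a panel for each assay and darker squares for larger numbers. Acetylation peaks were most numerous at Stmn1 and absent from Stmn4, whereas ATAC peaks were present at all 7 genes in all 4 lists.

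The 7 genes differed in the marks listed for them. Marcks, Marcksl1 and Stmn1 had acetylation peaks in all 8 H3K9ac and H3K27ac lists, as did 49.4% of all protein-coding genes. The same 3 genes had H3K27me3 peaks in 0, 1 and 1 of the 4 lists, and acetylation in all 8 lists with H3K27me3 in at most 1 was seen at 11.6% of all genes. Stmn4 was the reverse, with no acetylation peak in any of the 8 lists (25.9% of all genes) and H3K27me3 peaks in all 4. All H3K27me3 peaks of the 7 genes were weak calls, with folds of 1.01 to 1.63 and a −log10 q of at most 0.298. Gap43 was acetylated in 2 of 8 lists, Basp1 in 3 and Ncam2 in 7, and each of these also had H3K27me3 peaks in all 4 lists, as did 38.5% of all genes. Within 1 kb of a gene end, 5 of the 7 genes had an ATAC peak in all 4 lists (61.9% of all genes), 2 an H3K9ac peak (41.9%), 2 an H3K27ac peak (32.1%) and 1, Stmn4, an H3K27me3 peak (5.30%). Acetylation was sparse in the windows of Gap43, Basp1 and Stmn4. By a different measure, 9 of the 10 sensory neuron markers lacked an H3K9ac peak within 1 kb of an end in at least 1 of the 4 lists. H3K27me3 peaks lay within 1 kb of an end of 6, 7, 8 and 4 of these 10 markers in Sham, SNA, Lam and DCA. Isl1, Calca and Pou4f1 had one in every list. The part of the ganglion's cell mixture in the sparse acetylation was not tested.

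Per length, the spread among the genes was wide. In DCA, Stmn1 had 50.9 H3K9ac peaks per 100 kb of window, Marcksl1 31.2, Marcks 7.79, Gap43 1.78, Basp1 1.42, Ncam2 0.902 and Stmn4 0. The order of the first 3 changed with the list. In Lam, Stmn1 had 19.6, Marcks 19.5 and Marcksl1 8.93, and in Sham they had 27.4, 15.6 and 8.93. The windows ran from 22.4 kb at Marcksl1 to 444 kb at Ncam2, and the 3 shortest were the 3 acetylated in every list.

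Gap43, the neuronal growth-associated protein, lies at chr16:42248552-42340651 and spans 92.1 kb. Its ATAC peaks numbered 1 (Sham), 8 (SNA), 4 (Lam) and 6 (DCA). Both axotomy lists were above their controls, and the 2 control lists themselves differed by 3. These numbers chose the gene, so they are a description. The difference of 7 between SNA and Sham was reached or passed by 4.29% of all genes and by 9.97% of the 5567 genes whose windows were 0.5 to 2 times as long, and a further 1.90% of all genes were exactly 1 peak below it.

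Merged across surgeries where they overlapped, the Gap43 ATAC peaks formed 13 sites, of which 1 was in all 4 lists, 3 were in 2 lists and 9 were in a single list. With 1 Sham peak no more than 1 site could be in all 4 lists, and over all ATAC sites of the genome 59.7% were in a single list. The site in all 4 lists, chr16:42255381-42256173, lay inside the gene 6.83 kb from its lower-coordinate end. In Sham it was the only Gap43 peak, and it was weak there, with a deposited fold enrichment of 1.92 over background and a −log10 p of 3.79, placing it 97076th by p in its list of 153556. In SNA the same site had a −log10 p of 10.4 and was 17270th of 174605. In Lam it held the strongest Gap43 ATAC peak, with a −log10 p of 4.98, 55616th of 158160.

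The SNA peaks clustered in the middle of the gene. Of the 8, 4 lay between 54.8 and 58.9 kb from the lower end, at 54.8, 55.7, 57.4 and 58.5 kb. The peak at 57.4 kb, chr16:42305950-42306565, was the strongest of the 8, with a fold of 3.52 and a −log10 p of 17.7, in the top 5.42% of its list. It was the only Gap43 ATAC site present after both axotomies and after neither control operation. In DCA it was again the strongest Gap43 ATAC peak, with a fold of 2.37 and a −log10 p of 7.35, in the top 16.9% of that list. Fold and p are the authors' values and describe a peak within its own list, so they are not compared between lists.

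Acetylation at Gap43 was listed in DCA alone. The 2 H3K9ac peaks there lay at 55.1 and 57.4 kb, inside the same cluster, and overlapped ATAC sites of SNA at 54.8 kb and of SNA and DCA at 57.4 kb. The 57.4 kb H3K9ac peak was a weak one, with a fold of 2.98, in the lower part of its list (79.4% from the top). The single H3K27ac peak, also in DCA, lay 91.1 kb from the lower end and so within 1 kb of the upper end. The DCA list was the longest H3K9ac list of the 4 and had the highest scaled pile-up. The part of this in these peaks was not tested.

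The ATAC peak of SNA at 54.8 kb, chr16:42303353-42304130, covers the annotated microRNA gene Mir6540, whose lower-coordinate end lies 9 bases inside it. It is the one stretch under a Gap43 peak whose sequence was at hand. The RefSeq hairpin of 108 bases is given 5′ to 3′ with the mature mmu-miR-6540-3p of 21 bases in capitals.
Mir6540, minus strand, chr16:42303362-42303469: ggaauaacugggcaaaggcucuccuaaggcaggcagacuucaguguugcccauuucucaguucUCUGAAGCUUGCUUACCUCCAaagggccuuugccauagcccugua

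No list of an assay other than ATAC, and no surgery other than SNA, had a peak over this hairpin. The files hold chromatin peaks and not RNA, so the level of the microRNA was not measured.

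**Figure D2:**
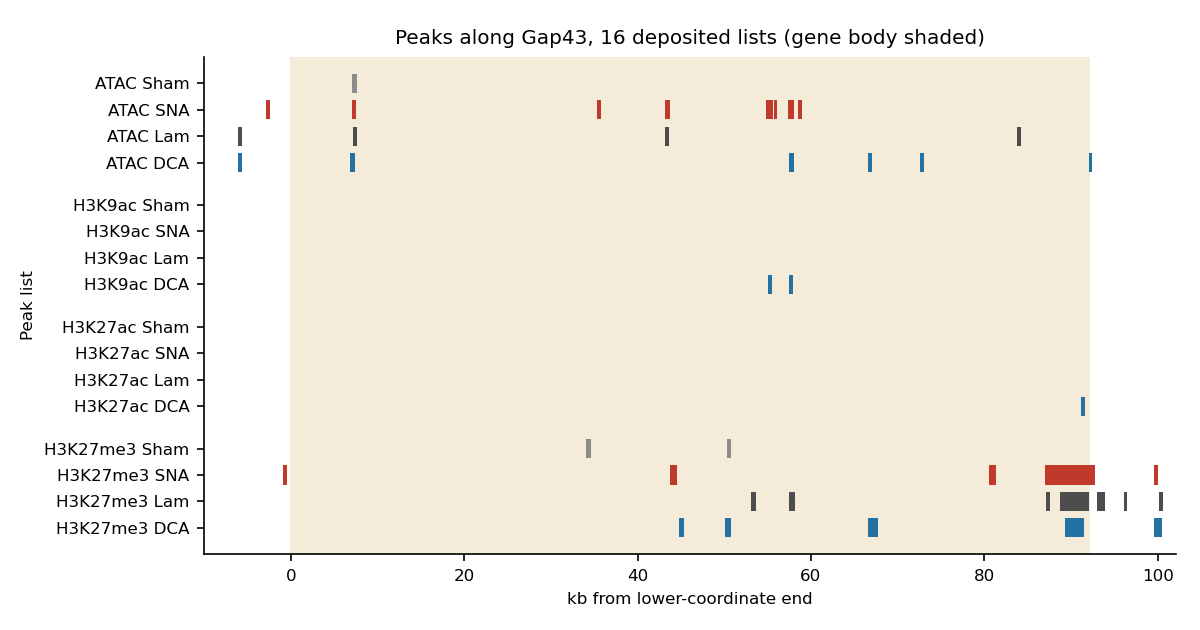
Peaks along Gap43 by distance in kb from the lower-coordinate end of the gene, with a row for each of the 16 lists and the gene body shaded. Very narrow peaks are drawn at 0.4% of the window so that they can be seen. The SNA row of ATAC has 4 peaks between 54.8 and 58.9 kb, H3K9ac peaks of DCA lie at the same place, and broad H3K27me3 lies at the upper end in SNA, Lam and DCA but not in Sham.

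H3K27me3 peaks at Gap43 numbered 2, 5, 7 and 5 in Sham, SNA, Lam and DCA. A site of 87.0 to 92.7 kb, over the upper end of the gene, was listed in SNA, Lam and DCA, and so was one at 99.5 kb, outside the gene, where the SNA and Lam peaks did not overlap each other. Neither was in the Sham list, so these sites did not separate axotomy from control surgery. Of the 13 sites, 10 were in a single list, as were 70.4% of all H3K27me3 sites. All H3K27me3 peaks of the 7 genes were weak, with folds between 1.01 and 1.63 and a −log10 q of at most 0.298, so that none would pass a q of 0.05. Weak calls were the rule in these lists, where the share of peaks with a q of at most 0.05 was 1.31%, 0.154%, 0.595% and 0.0478% for Sham, SNA, Lam and DCA.

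Basp1, which encodes a membrane protein closely related in biochemistry to Gap43, lies at chr15:25363277-25413764 on the minus strand, so its upper end is its start. It had 8, 5, 9 and 5 ATAC peaks in Sham, SNA, Lam and DCA, fewer in both axotomy lists than in either control. Over all genes 24.1% had fewer ATAC peaks in SNA than in Sham and 34.7% fewer in DCA than in Lam. Of its 14 ATAC sites, 2 were in all 4 lists. One covered the start, from 49.5 to 51.8 kb, and overlapped the promoter printed above, and the other lay near the far end of the gene, from 0.809 to 1.95 kb. The interval of a long noncoding RNA gene, Gm48957, begins at chr15:25414190, inside the site over the start. Peaks beyond that point cannot be given to Basp1 alone. The site at 40.2 kb, chr15:25403480-25403951, was in SNA and DCA and in neither control.

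Acetylation peaks at Basp1 were single and moved from list to list. H3K9ac had 1 peak in Lam at 49.5 kb and 1 in DCA at 0.967 kb, and H3K27ac had 1 in Sham at 49.6 kb. The peaks at 49.5 and 49.6 kb are within 1 kb of the start, and neither was listed after axotomy. H3K27me3 gave 5, 6, 7 and 1 peaks, and 17 of its 18 sites were in a single list, where 70.4% of all H3K27me3 sites were. The DCA number was the lowest, and 61.5% of all genes had fewer H3K27me3 peaks in DCA than in Lam.

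Marcks encodes the prototype of the myristoylated substrates of protein kinase C. It lies at chr10:37133243-37138926 and spans 5.68 kb. H3K9ac peaks numbered 4, 2, 5 and 2 in Sham, SNA, Lam and DCA, while the length they covered was 2.70, 0.937, 3.56 and 4.84 kb. The DCA peaks were thus fewer and longer than those of Lam. The longest was a single peak of 3039 bases, chr10:37135845-37138883, over the upper part of the gene, with a fold of 10.5 and a −log10 p of 46.6, the 36th by p among 89647 peaks of that list. In SNA both the number and the length were lower than in Sham. All Marcks H3K9ac peaks merged into 2 sites, each in all 4 lists, one at 2.60 to 5.64 kb and one at 6.29 to 8.09 kb. The interval of a long noncoding RNA gene, 5930403N24Rik, begins at chr10:37139532, where the second site begins. Peaks of any assay from there on cannot be given to Marcks alone.

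H3K27ac at Marcks gave 3, 5, 3 and 5 peaks in 5 sites. Of these, 2 were in all 4 lists, at 4.02 to 5.59 kb and 5.88 to 8.43 kb, and overlapped the H3K9ac sites. Another, at -3.08 to -2.65 kb and so outside the gene, was in Lam and DCA, had no H3K9ac peak, and held the strongest Marcks H3K27ac peak of the DCA list, with a fold of 5.09. The covered length was 2.65, 4.43, 3.81 and 2.19 kb, so the DCA list had more peaks than Lam over a shorter stretch. ATAC peaks numbered 2, 3, 3 and 3. The 2 ATAC sites in all 4 lists, at 2.82 and 7.65 kb, overlapped the acetylated blocks, and a short site of 0.183 kb at 5.64 kb was in SNA and DCA. Marcks had no H3K27me3 peak in any list, which held for 13.8% of all genes.

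Marcksl1, the MARCKS-like protein, lies at chr4:129513581-129515981 on the plus strand, and its window of 22.4 kb also holds part of Hdac1, a histone deacetylase gene whose annotated interval begins 123 bases beyond its end. Peaks past that point cannot be given to one gene. Marcksl1 had 2, 4, 2 and 7 H3K9ac peaks in Sham, SNA, Lam and DCA, covering 0.650, 1.25, 1.07 and 5.70 kb. Both axotomy lists were above both control lists in number and in length. The whole H3K9ac lists had the same order, with 74652 (SNA) and 89647 (DCA) peaks against 50332 (Sham) and 50667 (Lam). Over all genes 38.9% had more in SNA than in Sham and 47.6% more in DCA than in Lam. The share of genes with both was not computed. Of the 8 sites, 7 lay outside the gene body, all before the start, and the one in all 4 lists ran from -2.12 to -0.723 kb relative to the start. The block over the start of the gene, from 0.018 to 1.19 kb, was listed in Lam and DCA.

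H3K27ac at Marcksl1 gave 2, 4, 4 and 3 peaks, with a site from -3.12 to -0.733 kb in all 4 lists. ATAC gave 4, 4, 4 and 3 peaks, of which the site over the start, with the promoter above, was in all 4. The ATAC site at -2.16 kb, chr4:129511423-129512004, was in SNA and DCA only and lay inside the H3K27ac block. The upstream block therefore carried acetylation in every list and an ATAC peak after both axotomies.

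**Figure D3:**
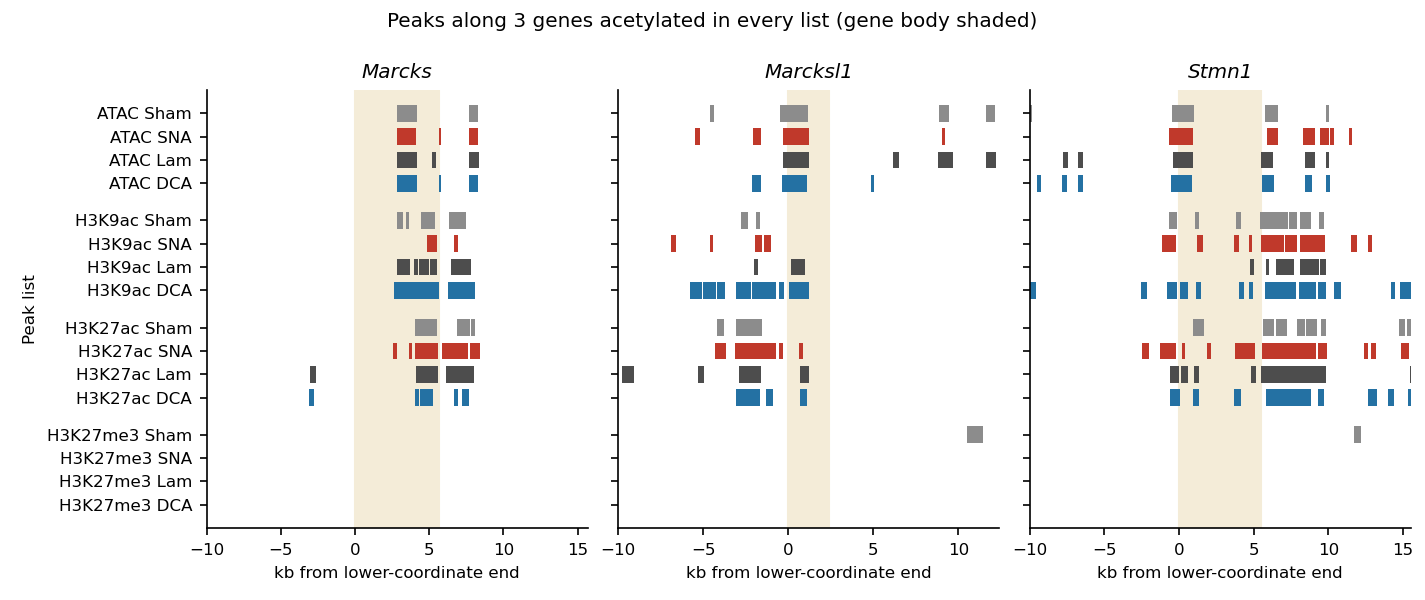
Peaks along Marcks, Marcksl1 and Stmn1 by distance in kb from the lower-coordinate end of each gene, with a row for each of the 16 lists and the gene body shaded. Acetylation lies beside or over the gene in all 8 acetylation lists, and the H3K27me3 rows hold 2 peaks, both in Sham.

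Stmn1, the ubiquitous stathmin, lies at chr4:134468320-134473843 and had the most acetylation peaks of the 7 genes. Its H3K9ac peaks numbered 7, 9, 5 and 13 in Sham, SNA, Lam and DCA and covered 4.56, 6.53, 3.27 and 8.13 kb. Both axotomy lists were above both controls, as were the whole H3K9ac lists in peak number. Over all genes 38.9% had more H3K9ac peaks in SNA than in Sham and 47.6% more in DCA than in Lam. Of 14 sites, 2 were in all 4 lists, from 5.44 to 7.91 kb and from 8.03 to 9.84 kb, directly beyond the upper end of the gene, and 6 were in DCA alone. H3K27ac peaks numbered 8, 10, 6 and 8, and one site covered the same stretch, from 5.48 to 9.91 kb, in all 4 lists. A site at 12.4 kb was the only H3K27ac site of the 7 genes listed after both axotomies and neither control.

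ATAC at Stmn1 was steady at the lower end. A site from -0.654 to 0.990 kb was in all 4 lists with −log10 p values from 38.7 to 41.9, within the top 2.30% of each list. It was the strongest Stmn1 ATAC peak in every list. ATAC peaks numbered 5, 6, 6 and 7 over 11 sites, and 3 of these were shared by every list. Of the 6 ATAC peaks in SNA, 5 overlapped H3K9ac of the same surgery, against 2 of 5 in Sham, 3 of 6 in Lam and 3 of 7 in DCA.

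Stmn4, a stathmin largely restricted to neurons, lies at chr14:66344210-66361680. It had ATAC peaks and H3K27me3 but no acetylation. ATAC peaks numbered 4, 7, 8 and 3 in Sham, SNA, Lam and DCA, so the 2 controls differed from each other by more than SNA differed from Sham. The site in all 4 lists lay at 0.609 to 1.54 kb from the lower end, beside one over that end itself in SNA, Lam and DCA. A site at 8.82 kb was in SNA and DCA only. A long noncoding RNA gene, Gm41183, lies in the window at chr14:66336036-66343729, and peaks of any assay there cannot be given to Stmn4 alone.

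The H3K27me3 peaks of Stmn4 numbered 6, 10, 9 and 10 and covered 18.1, 16.1, 19.6 and 10.7 kb of the 37.5 kb window, more than at any other of the 7 genes. As stated above, these were weak calls, and none would pass a q of 0.05. Of the 8 merged sites, 3 were in all 4 lists, the longest from -15.8 to 4.30 kb relative to the lower end, and in another the Sham peak overlapped neither the SNA nor the DCA peak. In SNA and DCA the peaks were more numerous than in Sham over a shorter length. ATAC peaks of Stmn4 overlapped H3K27me3 of the same surgery in 3 of 4, 5 of 7, 8 of 8 and 2 of 3 cases in Sham, SNA, Lam and DCA. In the other 6 genes together this held for 4 of 31, 1 of 32, 1 of 36 and 1 of 32. For all 7 genes the shares were 20.0%, 15.4%, 20.5% and 8.57%, and for the whole ATAC lists 15.8%, 13.1%, 23.1% and 5.37%.

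Ncam2, the olfactory relative of neural cell adhesion molecule 1, lies at chr16:81200697-81624290 on the plus strand and spans 424 kb. Its ATAC peaks numbered 11, 6, 10 and 8 in Sham, SNA, Lam and DCA, lower in both axotomy lists than in both controls. Over all genes 24.1% had fewer in SNA than in Sham and 34.7% fewer in DCA than in Lam. Of 25 ATAC sites, 20 were in a single list (59.7% of all ATAC sites), and the one in all 4 covered the start, from -1.08 to 0.495 kb. Acetylation followed just inside the gene. H3K9ac sites at 1.73 to 2.53 kb and 3.75 to 4.29 kb, and H3K27ac sites at 1.67 to 2.60 kb and 3.32 to 4.38 kb, were each in SNA, Lam and DCA and not in Sham. The Sham list had a short H3K27ac peak between them, at 2.82 kb, and no H3K9ac peak anywhere in the window. These sites thus did not separate axotomy from laminectomy, and an H3K9ac site at 3.32 kb was the one listed in SNA and DCA only.

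A further H3K27ac site of Ncam2, chr16:81282725-81283952, lay 82.0 kb inside the gene. It held the strongest H3K27ac peak of the 7 genes in Sham, with a fold of 19.9 and a −log10 p of 84.4, within the top 0.747% of that list. Lam and DCA had peaks overlapping it, within the top 0.989% and 0.630% of their lists. The SNA list had no peak there. Its only peak in the merged site, chr16:81282751-81282938, lay beside the strong one, had a fold of 3.93 and was 38715th by p of 75824, and it was joined to the site through a weak DCA peak. Neither an ATAC nor an H3K9ac peak overlapped the site in any list. Of the whole Sham H3K27ac list, 42.6% of peaks had no overlapping SNA peak. The highest −log10 q of the SNA list was 51.6, against 269, 190 and 181 in Sham, Lam and DCA. The part of these list differences in the missing SNA peak was not tested.

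**Figure D4:**
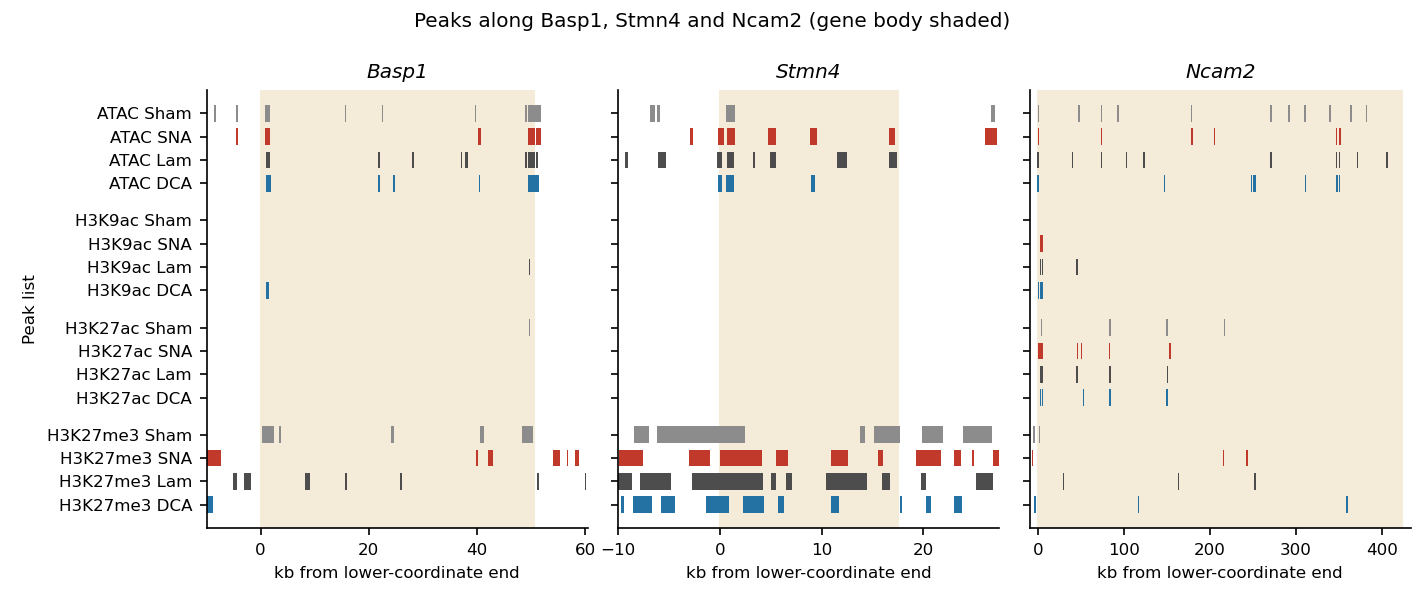
Peaks along Basp1, Stmn4 and Ncam2 by distance in kb from the lower-coordinate end of each gene, with a row for each of the 16 lists and the gene body shaded. Very narrow peaks are drawn at 0.4% of the window. H3K27me3 covers much of the Stmn4 window in every list, and Ncam2 acetylation lies close to its start in SNA, Lam and DCA, with a single short H3K27ac peak there in Sham.

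After sciatic axotomy, set against its sham, the 7 genes had 18 H3K9ac peaks against 13, a difference of 5. Of the 7, 3 had more (Marcksl1, Stmn1 and Ncam2), 1 fewer (Marcks) and 3 the same number. Over all genes 38.9% had more and 11.4% fewer. The median difference was 0 among the 7 genes and 0 over all genes. With the lists shortened to equal size the total difference was 0, and without Ncam2 it was 2.

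H3K27ac peaks numbered 27 in SNA against 18 in Sham. Of the 7 genes, 4 had more (43.9% of all genes), 1 had fewer (12.8%) and 2 had the same number, with a median difference of 2 against 0 over all genes. Those with more were Marcks, Marcksl1, Stmn1 and Ncam2, and Basp1, with a single peak in Sham, had none in SNA. The SNA list was the longest of the 4, and at equal list size the difference of 9 became 1.

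H3K27me3 peaks numbered 24 against 17, with 4 genes having more (32.5% of all genes) and 2 fewer (33.8%). Within gene bodies alone the difference was 0. ATAC peaks numbered 39 against 35, with more at Gap43, Marcks, Stmn1 and Stmn4, that is 4 of 7 (46.8% of all genes), and fewer at Basp1 and Ncam2 (24.1%). Since Gap43 was chosen on this comparison, its 7 further peaks are part of the total by construction, and the other 6 genes together had 3 fewer. The long gene Ncam2 lost 5, so without it the total difference was 9.

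After dorsal column axotomy, set against laminectomy, H3K9ac peaks numbered 29 against 16. Gap43, Marcksl1, Stmn1 and Ncam2 had more (4 of 7, and 47.6% of all genes), Marcks had fewer (8.63% of all genes), and Basp1 and Stmn4 did not differ in number. The largest difference was that of Stmn1, 13 against 5. The DCA list had a scaled background pile-up of 5.2 against 3.04 in Lam, with scale factors of 0.918 and 0.611. At equal list size the difference of 13 became 2. The covered length was 22.3 kb against 9.16 kb.

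H3K27ac peaks numbered 23 in DCA against 18 in Lam. This went against the direction of the lists, since 4 of the 7 genes had more (Gap43, Marcks, Stmn1 and Ncam2) where 12.1% of all genes did, and 1, Marcksl1, had fewer where 38.9% did. Of the 18 Lam peaks, 27.8% had no overlapping DCA peak (Wilson 95% interval 12.5 to 50.9%, counting error only), and over the whole Lam list 53.4% had none. Among all such shares, over every assay and pair of lists compared, this was the only whole-list value outside its interval. The covered length was 14.0 kb in DCA and 15.2 kb in Lam, so the acetylated stretch was no longer. With a −log10 q of 5 or more required, the difference turned to -4, and with 25 kb on either side it was 1.

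H3K27me3 peaks numbered 19 in DCA against 26 in Lam, with 1 gene having more (10.3% of all genes), 2 fewer (61.5%) and 4 the same. The difference was that of Basp1 and Gap43, and at equal list size it turned to 10. ATAC peaks numbered 35 against 44. Gap43 and Stmn1 had more (2 of 7, and 35.1% of all genes), and Basp1, Marcksl1, Stmn4 and Ncam2 had fewer (4 of 7, and 34.7%). The difference was largest at Stmn4, 3 against 8, and limited to a −log10 q of 5 or more the total turned to 4.

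Laminectomy and sham surgery, neither with an axotomy, also differed. Lam had 3 more H3K9ac peaks than Sham in the 7 genes, 0 more H3K27ac peaks, 9 more H3K27me3 peaks and 9 more ATAC peaks. For ATAC, 5 of the 7 genes had more in Lam (41.4% of all genes) and 1 fewer (29.4%). For H3K27me3 4 genes had more (48.3%) and 2 fewer (21.3%), for H3K9ac 3 more (25.1%) and 1 fewer (23.0%), and for H3K27ac 2 more (41.6%) and 2 fewer (11.1%). The ATAC difference between the controls was larger than that between SNA and Sham.

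**Figure D5:**
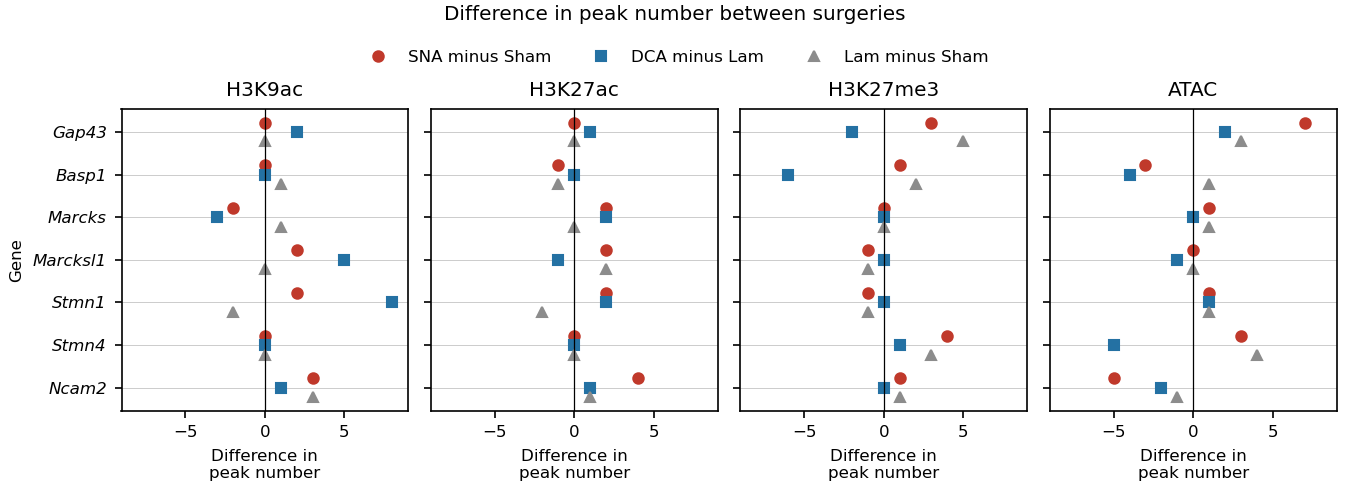
Difference in peak number for each gene and assay, with SNA minus Sham as circles, DCA minus Lam as squares and Lam minus Sham as triangles. The largest values are 8 for Stmn1 H3K9ac in DCA and 7 for Gap43 ATAC in SNA, and the differences between the 2 controls reach 5.

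The share of axotomy peaks with no counterpart in the control list was then set beside that of the whole lists. Of the 39 ATAC peaks in SNA, 59.0% had no overlapping Sham peak (interval 43.4 to 72.9%), and 59.6% of the whole SNA list had none. Gap43, chosen on this comparison, supplied 8 of the 39 peaks, so its choice fixed part of this share. The corresponding shares were 50.0% against 49.5% for H3K9ac, 70.4% against 65.3% for H3K27ac and 75.0% against 70.5% for H3K27me3. For DCA peaks with no Lam counterpart they were 45.7% against 57.9% for ATAC, 65.5% against 61.8% for H3K9ac, 26.1% against 27.9% for H3K27ac and 52.6% against 61.6% for H3K27me3. Each of these 8 whole-list shares lay inside the interval of the 7 genes. The same shares were computed for control peaks without an axotomy peak, and between the controls in either direction. Among all of them, only that of the H3K27ac peaks of Lam without a DCA peak, given above, lay outside its interval. A single miss among so many 95% intervals cannot be told from counting error. Stmn1 alone held 6 of those 18 peaks, so no conclusion is drawn from it. Limited to query peaks with a −log10 q of 5 or more, few peaks of the 7 genes were left. The SNA shares were then 4 of 14 for ATAC (28.6%), 0 of 4 for H3K9ac (0.0%) and 5 of 10 for H3K27ac (50.0%). The DCA shares were 1 of 12 (8.33%), 7 of 15 (46.7%) and 0 of 7 (0.0%). Whole-list shares at this limit were not computed, so these values have no background beside them.

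Merged over surgeries, 11 of the 87 ATAC sites of the 7 genes (12.6%) were in all 4 lists, and 10.0% of all ATAC sites were. Sites present after both axotomies and neither control were 5 of 87 for ATAC, 2 of 33 for H3K9ac, 1 of 35 for H3K27ac and 2 of 52 for H3K27me3. Over all sites these shares were 4.26%, 8.52%, 2.32% and 2.18%. The 5 ATAC sites of this kind were those described above, at Gap43, Basp1, Marcks, Marcksl1 and Stmn4, with 1 in each. Sites in both controls and neither axotomy numbered 4 for ATAC and 0 for each histone mark, and their shares over all sites were 2.62% for ATAC, 0.366% for H3K9ac, 2.55% for H3K27ac and 4.34% for H3K27me3.

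ATAC peaks overlapped H3K9ac of the same surgery in 8.57%, 15.4%, 18.2% and 28.6% of cases in Sham, SNA, Lam and DCA, where the whole ATAC lists had 14.1%, 16.9%, 13.0% and 20.6%. For H3K27ac the shares were 17.1%, 23.1%, 18.2% and 20.0%, and those of the whole lists 10.7%, 15.1%, 15.8% and 10.8%. These overlaps came mostly from Marcks, Marcksl1 and Stmn1. In Gap43 1 of 19 ATAC peaks over the 4 lists overlapped acetylation of the same surgery, the 57.4 kb peak of DCA.

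A list of 24 related genes of the growth cone (other stathmins, adhesion molecules, cytoskeletal and signalling proteins) gave the setting. Of these, 23 had an ATAC peak at a gene end in all 4 lists (61.9% of all genes), 15 were acetylated in all 8 lists (49.4%) and 13 had H3K27me3 in all 4 (38.5%). In ATAC, 14 of 24 had more peaks in SNA than in Sham (46.8% of all genes) and 8 fewer (24.1%), and 7 had more in DCA than in Lam (35.1%) and 11 fewer (34.7%). For H3K9ac 16 had more (38.9%) and 2 fewer (11.4%) after SNA, and 17 more (47.6%) and 1 fewer (8.63%) after DCA. For H3K27ac 15 had more (43.9%) and 2 fewer (12.8%) after SNA, and 6 more (12.1%) and 9 fewer (38.9%) after DCA. For H3K27me3 7 had more (32.5%) and 12 fewer (33.8%) after SNA, and 4 more (10.3%) and 17 fewer (61.5%) after DCA.

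The related genes with the 3 highest and the 3 lowest ATAC differences after SNA follow. Ncam1, the adhesion molecule nearest to Ncam2, had 27, 46, 35 and 34 ATAC peaks in Sham, SNA, Lam and DCA. The protein kinase C gene Prkcb, whose product phosphorylates Gap43 and MARCKS proteins, had 42, 58, 45 and 50. Map1b, a microtubule-associated protein, had 22, 35, 33 and 25. At the other end, the adhesion molecule Nrcam had 12, 5, 7 and 7, Cntn2 15, 11, 13 and 10, and the neuronal tubulin Tubb3 13, 9, 8 and 7. Ncam1 and Ncam2 thus lay on opposite sides in this comparison.

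Among 5566 genes of 0.5 to 2 times its window length, the 5 whose peak numbers over the 16 lists were nearest to those of Gap43, by Euclidean distance in log2(number + 1), were Usp44 (1.99), Gabrr3 (2.20), 4930447C04Rik (2.23), Hhip (2.32) and Gys2 (2.32). The ATAC numbers of Usp44 were 1, 4, 3 and 5 in Sham, SNA, Lam and DCA, and those of Hhip were 1, 6, 4 and 4. Those of Gabrr3 were 3, 4, 3 and 4, of 4930447C04Rik 3, 3, 2 and 5, and of Gys2 3, 4, 6 and 5. These numbers are part of the distance that chose the genes. Like Gap43, these 5 genes had no H3K27ac peak in Sham, SNA or Lam, and unlike Gap43 none in DCA. The likeness is a description over 16 lists.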

How the data were processed

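Chromatin was profiled by ChIP-seq for 3 histone marks and by ATAC-seq, and the authors deposited 16 peak lists, each from the pooled replicates of a condition. The build is mm10 per the submitters' processing notes, and the aligner and peak caller are not given in the sources used here. Each list holds the authors' integer display score, not used here, and the deposited fold enrichment, a linear ratio of a peak over background. The authors' −log10 of p and of q were used to describe, rank or filter peaks within a list. The narrow lists also give the deposited summit distance, another value not used here. No depth per sample is known, so the precision of a count cannot be stated.

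Peaks were joined to RefSeq genes (GRCm38.p6) with Python 3.11.15, pandas 2.3.3, numpy 2.4.6 and scipy 1.17.1. A window was the gene body with 10 kb on either side, an overlap was at least 1 bp, and repeated ATAC intervals were counted once. Strand and exons are not in the gene table, so a peak within 1 kb of either gene end replaced the planned distance to the start, and whether a site is exonic or intronic was not assigned. Peaks of the 4 lists of an assay were merged into sites where they overlapped, so peaks of a pair of lists can be joined through another list. In 2 of 6 H3K27ac and 1 of 3 H3K27me3 sites of the 7 genes listed in every surgery, some pair of lists did not overlap directly. Distances in kb are from the lower-coordinate end of a gene. Wilson intervals are 95% and cover counting error only. The background pile-up, in scaled reads, and its scale factor were recovered from fold and p under a Poisson model. In this fit 400 sampled peaks per list matched within 0.003. Counting was tested on simulated peaks. Alternatives were stricter −log10 q limits, other windows, reciprocal overlap, lists shortened to the smallest of the assay by p, and every ATAC summit counted. Ncam2 was also left out, and so were peaks within 1 kb of an end of another protein-coding gene. The members and gene lists were chosen with earlier results of these data known. The 7 members are all named. Of 24 related genes, those with the 3 highest and 3 lowest ATAC differences after SNA are given, and beside Gap43 the 5 genes nearest to it in peak numbers.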

Additional observations from a re-analysis of the deposited data

Results flagged for a closer look

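In 6 cases the peak number went up in sciatic axotomy against its sham and down in dorsal column axotomy against laminectomy. There is 1 list per group, so the difference between the injuries was not tested. For the 7 genes together the 2 differences in H3K27me3 were 7 and -7, which is 14 apart. In ATAC they were 4 and -9, which is 13 apart. Gap43 was chosen for its ATAC number in SNA and contributes 7 to the SNA difference. The other 6 genes together had 3 fewer ATAC peaks in SNA, so the ATAC total rose only with Gap43. Limited to a −log10 q of at least 5, the ATAC differences were 5 and 4. At Gap43 the H3K27me3 differences were 3 and -2, 5 apart, and at Basp1 1 and -6, 7 apart. At Stmn4 the ATAC differences were 3 and -5, 8 apart. At Marcksl1 the H3K27ac differences were 2 and -1, 3 apart. For H3K27me3, 32.5% of all genes had more and 33.8% fewer peaks in SNA than in Sham, and 10.3% had more and 61.5% fewer in DCA than in Lam. For ATAC, 46.8% had more in SNA than in Sham and 34.7% fewer in DCA than in Lam. For H3K27ac these shares were 43.9% and 38.9%. The share of genes that went both ways at once was not computed. At equal list size the 2 H3K27me3 differences of the 7 genes were 4 and 10, no longer opposite.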

How the results depend on the processing

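No paired analysis was possible because each list pools all replicates of a condition, and for the same reason no replicate could be left out. Of 58 recomputed differences in total peak number, 29 stayed within 1.5 times the reported value, 26 moved further and 3 reversed. Of 28 recomputed shares 16 stayed within the counting interval and 12 moved out of it. The causes were not tested, except where fewer peaks or genes enter by construction.

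For H3K9ac the SNA difference of 5 was 2 in gene bodies alone, 8 with 25 kb on either side, 0 at equal list size and 2 without Ncam2. The DCA difference of 13 was 3 in gene bodies and 2 at equal list size. For H3K27ac the SNA difference of 9 was 3 at a −log10 q of at least 5, 1 at equal list size and 5 without Ncam2. The DCA difference of 5 was 3 at a −log10 q of at least 2, -4 at 5, 2 in gene bodies and 1 with 25 kb. For H3K27me3 both differences were 0 at a −log10 q of at least 2 or 5, where no peak was left. The SNA difference of 7 was 0 in gene bodies and 4 at equal list size, and the DCA difference of -7 was -13 with 25 kb and 10 at equal list size. For ATAC the SNA difference of 4 was 8 at a −log10 q of at least 2, 9 with 25 kb, 2 at equal list size, 9 without Ncam2 and 8 with every summit counted. The DCA difference of -9 was -2 at a −log10 q of at least 2, 4 at 5 and -19 with every summit.

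With a reciprocal overlap of at least 50%, the share of SNA peaks without a Sham peak became 72.2% for H3K9ac, 85.2% for H3K27ac and 95.8% for H3K27me3, and that of DCA peaks without a Lam peak 56.5% for H3K27ac and 94.7% for H3K27me3. With peaks of −log10 q of at least 5 as the query, the SNA shares were 0.0% for H3K9ac, 50.0% for H3K27ac and 28.6% for ATAC, and the DCA shares 46.7%, 0.0% and 8.33%. Whole-list shares were not computed at this limit, with reciprocal overlap or at equal list size. At equal list size the H3K27me3 share in DCA was 94.7%. H3K27me3 gave no share at the q limits, since no peak was left. The ATAC difference of Gap43 in SNA, 7, lay between 2, at a −log10 q of at least 5, and 9, with every summit counted. Its difference of 2 in DCA lay between 0, at a −log10 q of at least 5 and with every summit counted, and 4, with 25 kb on either side.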
